A study of Mus musculus with 6 samples.

Results

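DNA replication origin and fork genes were followed in mouse pre-B cells transformed by the BCR-ABL1 kinase. The set of 46 genes was chosen by function, with earlier results of these data known. All 46 had a probe set assigned to that gene alone, out of 19938 genes measured in this way, and a gene with several such probe sets was represented by its brightest on average. Expression was measured as log2 values on Affymetrix arrays, starting from total RNA and with a biotin label. CRE-ERT2 cells carried PMIP-CRE-ERT2, a Cre recombinase fused to a tamoxifen-responsive receptor domain (3 arrays), and ERT2 cells carried PMIP-ERT2, the receptor domain without Cre (3 arrays). Both groups were of strain 129P2/OlaHsd with 1 floxed Ptpn6 allele (Ptpn6 +/fl), both were puromycin resistant, and both received 0.5 micromolar 4OH-Tamoxifen for 2 days. No array of Cre-carrying cells without the floxed allele was analysed here, so an effect of Cre and one of losing that allele cannot be told apart. With 3 arrays a group, precision is limited. The labels name no separate cultures behind the replicates, so p-values reflect only how far these samples spread, and that spread may be technical.

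Each chromosome is copied once per cell cycle in ordered steps. The origin recognition complex marks origins and, with CDC6 and CDT1, loads the ring-shaped MCM helicase. The kinase CDC7-DBF4 and a set of firing factors then switch the helicase on by adding CDC45 and the GINS complex. Behind it, polymerase alpha with primase starts each strand, the clamp PCNA is placed by replication factor C, and polymerases delta and epsilon extend the strands. Many of these genes are transcribed in late G1 and S phase under E2F transcription factors, and leukaemic pre-B cells divide rapidly.

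Ptpn6, which encodes the phosphatase SHP-1 and carries the floxed allele, was read first as a check of the labels. Its log2 expression was 11.36, 11.25 and 11.20 on the CRE-ERT2 arrays, against 11.25, 11.39 and 11.39 on the ERT2 arrays. The groups overlapped, the change was -0.07 (95% confidence interval -0.24 to 0.10), and p was 0.3 in a two-sided exact permutation test, for which 0.1 is the smallest value possible here. Whether the probe set lies in the floxed part is not known here, so the level does not check the labels. Of 14 pre-B cell markers measured, 11 lay above the upper quartile of all genes on every array, including Cd79a, Vpreb1, Igll1 and Pax5, while 0 of 10 myeloid, 0 of 8 T cell, 0 of 5 erythroid and 0 of 8 stromal markers did. Of these other markers, 8, 7, 4 and 5 in the same order lay below the median of all genes on every array. The mean level of the myeloid markers spanned 7.30 to 7.37 on the CRE-ERT2 arrays and 7.32 to 7.36 on the ERT2 arrays. Among the pre-B markers Rag2 (-0.53) and Il7r (-0.43) fell and Dntt (0.48) rose, with limma adjusted p of 0.00426, 0.00349 and 0.00369. These 3 of 14 had an adjusted p under 0.05, where 4.58% of all genes did. With all 35556 probe sets tested, Rag2 (adjusted p = 0.091) and Dntt (0.064) no longer did. The change was above 0 for 11 of the 14 markers and below 0 for 3, with a median of 0.095. Over all genes 61.1% were below 0.

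Replication genes were slightly lower in the CRE-ERT2 cells, and 3 of the 46 passed the test: Orc1, Mcm8 and Rfc1. The log2 change was below 0 for 45 of the 46 members and above 0 for Rpa1. The median change was -0.17, a level 11.3% lower, against -0.03 over all genes, of which 61.1% were below 0. A gene passed when its adjusted p was under 0.05 in limma with Benjamini-Hochberg adjustment over all 19938 genes. By that rule 3 members fell, 0 rose and 43 did not pass, where 4.58% of all genes passed in either direction and 2.28% passed as lower (455 of 914; 349 of 892 after a further quantile normalization). In RNA from whole cultures, fewer cells in S phase and less RNA per cell cannot be told apart.

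The shifts were small. No member changed by 0.5 or more, and 317 of all 19938 genes did. At so low a share over all genes, 0 of 46 does not set the members apart. The median SD within a group was 0.0684 over the members and 0.0974 over all genes. The 95% confidence interval lay wholly below 0 for 23 members, which is an unadjusted p under 0.05 and a lower level, a property of 11.1% of all genes. The 3 CRE-ERT2 arrays all lay below the 3 ERT2 arrays for 35 of the 46 members, against 15.5% of all genes, and all lay above them for 0 members.

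**Figure D1:**
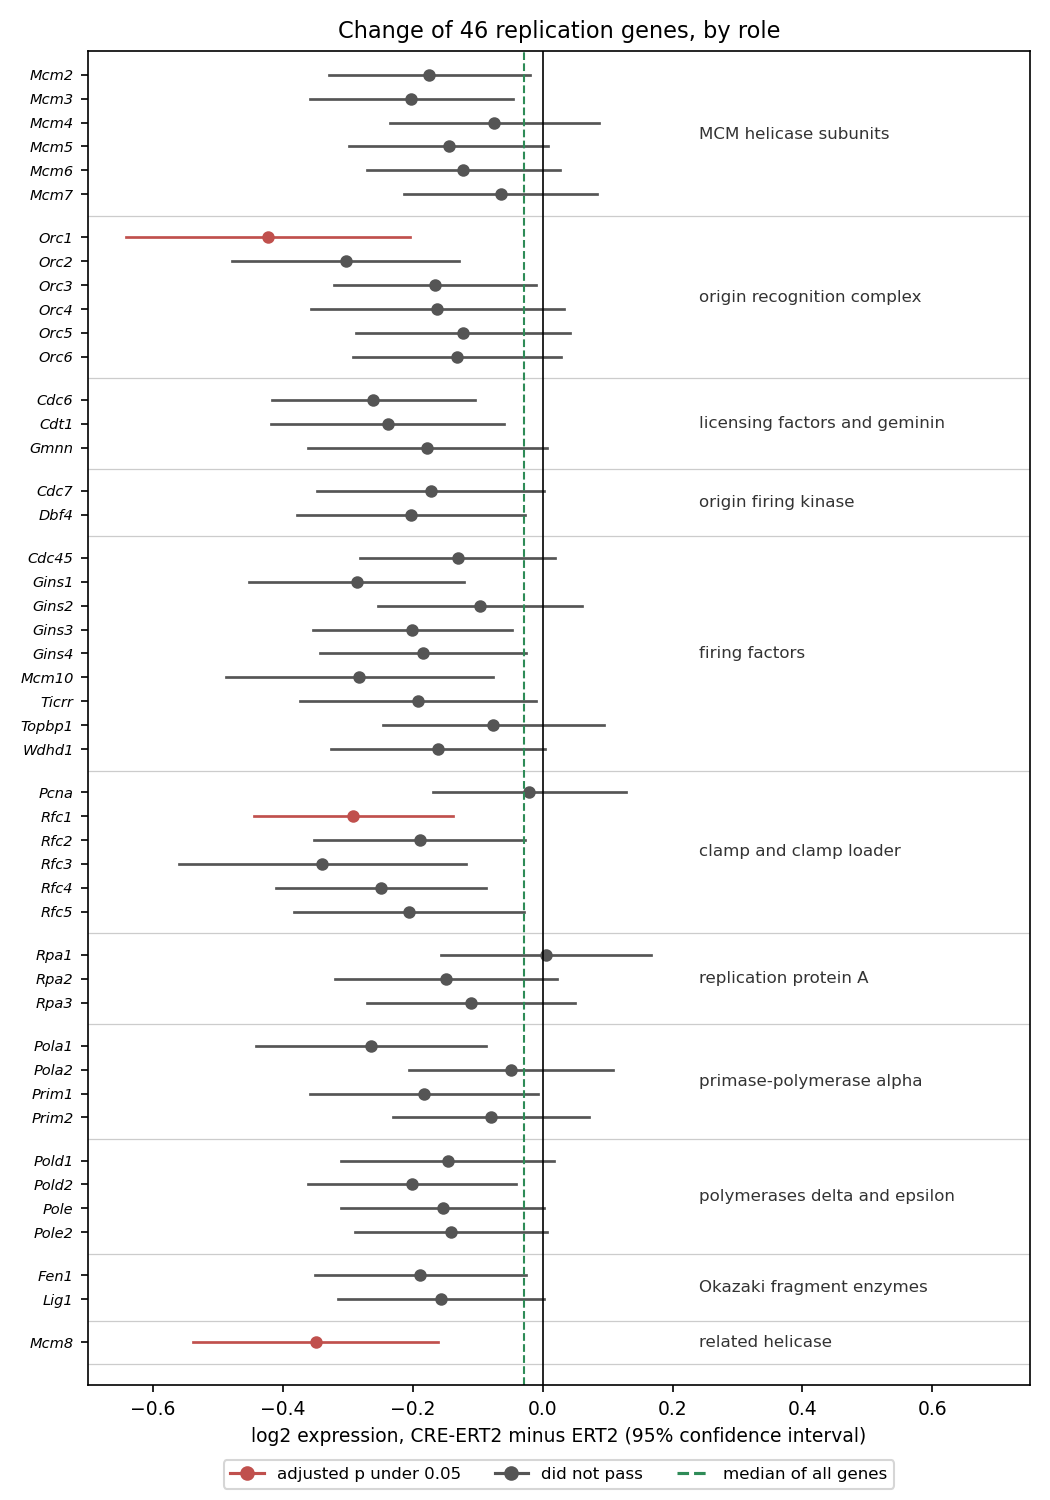
Change of each of the 46 genes (points, log2 expression, CRE-ERT2 minus ERT2) with its 95% confidence interval (lines), grouped by role; the dashed line is the median of all genes, -0.03. Points lie left of 0 for 45 genes, and the 3 coloured ones, Orc1, Rfc1 and Mcm8, passed the test.

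Expression level also differed between the members and other genes. By mean level, 44 of the 46 members were in the third of genes with the highest levels and 2 in the middle one. Among those brightest genes the median change was -0.08, 70.7% of genes were below 0, and for 31.3% the CRE-ERT2 arrays all lay below the ERT2 arrays. In the group with the lowest levels these shares were 57.5% and 4.97%, with a median change of -0.02. In the middle group they were 55.1% and 10.4%, with a median of -0.01. The share below 0 and the median did not follow level steadily. The share with all CRE-ERT2 arrays below the ERT2 arrays rose with level. The share of genes passing as lower rose too, at 0.316%, 2.9% and 3.63% from the lowest to the highest levels. The part of expression level in the members' shift was not tested.

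Single arrays also differed. The median deviation of the members from their own means was -0.03, -0.10 and -0.09 on CRE-ERT2 replicates 1 to 3, against 0.14, 0.07 and 0.04 on ERT2 replicates 1 to 3. ERT2 replicate 1 held the highest value of 31 members and CRE-ERT2 replicate 2 the lowest value of 25. For every one of the 46 members the lowest value was on a CRE-ERT2 array and the highest on an ERT2 array, a pattern found in 43.8% of all genes. ERT2 replicate 1 stood high over all genes too, with a median deviation of 0.04. Without it the median change of the members was -0.15, with 45 of 46 below 0 and 0 passing in limma (15 had an unadjusted p under 0.05 and were lower, against 8.56% of all genes). Leaving out CRE-ERT2 replicate 2 or CRE-ERT2 replicate 3 gave a median of -0.16 each and 0 passing members, with 14 and 13 lower at an unadjusted p under 0.05, against 7.58% and 7.66% of all genes. Without CRE-ERT2 replicate 1 the 1 passing member was Gins1. Members lower at an unadjusted p under 0.05 then numbered 23 (11.3% of all genes), against 18 without ERT2 replicate 2 (11.5%) and 24 without ERT2 replicate 3 (12.0%).

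**Figure D2:**
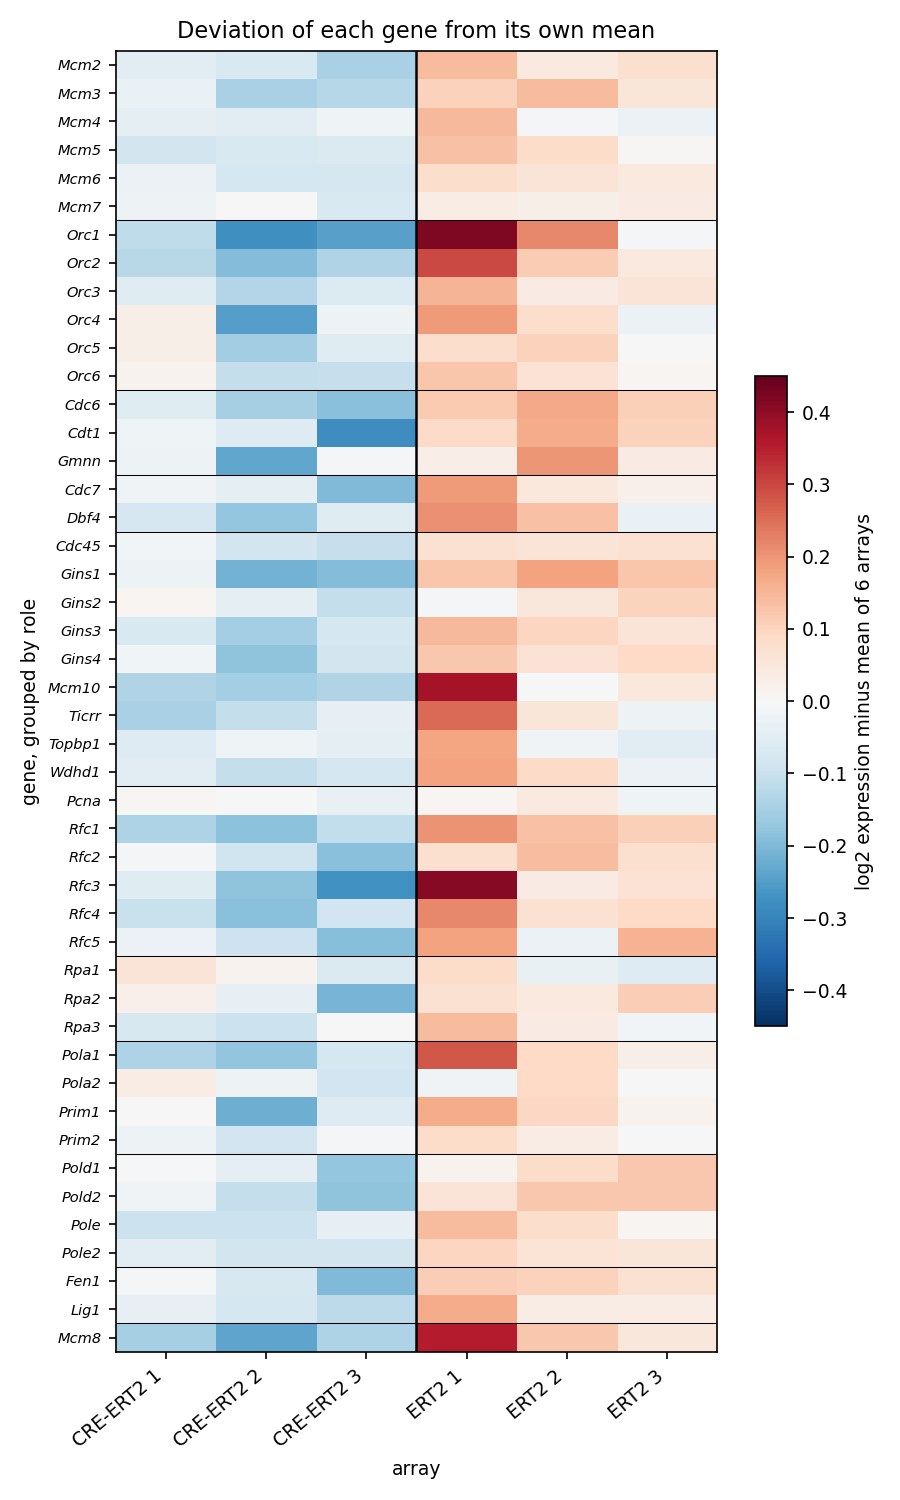
Deviation of each gene (rows, grouped by role) from its own mean over the 6 arrays (columns), in log2 expression. Blue fills most cells of the 3 CRE-ERT2 columns and red most cells of the 3 ERT2 columns, with the strongest red on ERT2 replicate 1, which holds the highest value of 31 of the 46 genes.

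Among subunits of the origin recognition complex, Orc1, the subunit whose abundance follows the cell cycle, fell. Its log2 expression was 10.20, 10.04 and 10.07 on the CRE-ERT2 arrays, against 10.74, 10.54 and 10.31 on the ERT2 arrays. The groups did not overlap, although the ERT2 arrays spread widely and the lowest of them was 0.11 above the highest CRE-ERT2 array. The change was -0.42 (SE 0.10, limma adjusted p = 0.0319), a level 25.4% lower, and it was the largest decrease among the 46 genes. The call was lost without CRE-ERT2 replicate 1 (adjusted p = 0.0551), CRE-ERT2 replicate 2 (0.1001), CRE-ERT2 replicate 3 (0.157) or ERT2 replicate 1 (0.130). It was also lost with all probe sets tested (0.228).

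Orc2, a core subunit of the same complex, had 11.53, 11.46 and 11.52 on the CRE-ERT2 arrays, against 11.95, 11.77 and 11.70 on the ERT2 arrays. The groups did not overlap, and the change of -0.30 had an adjusted p of 0.0536, just short of the threshold. The other core subunits Orc3 (-0.17), Orc4 (-0.16) and Orc5 (-0.12), and Orc6 (-0.13), which helps load the helicase, did not pass. The CRE-ERT2 and ERT2 arrays overlapped for Orc4, Orc5 and Orc6. All 6 subunits had a change below 0, with a median of -0.16.

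**Figure D3:**
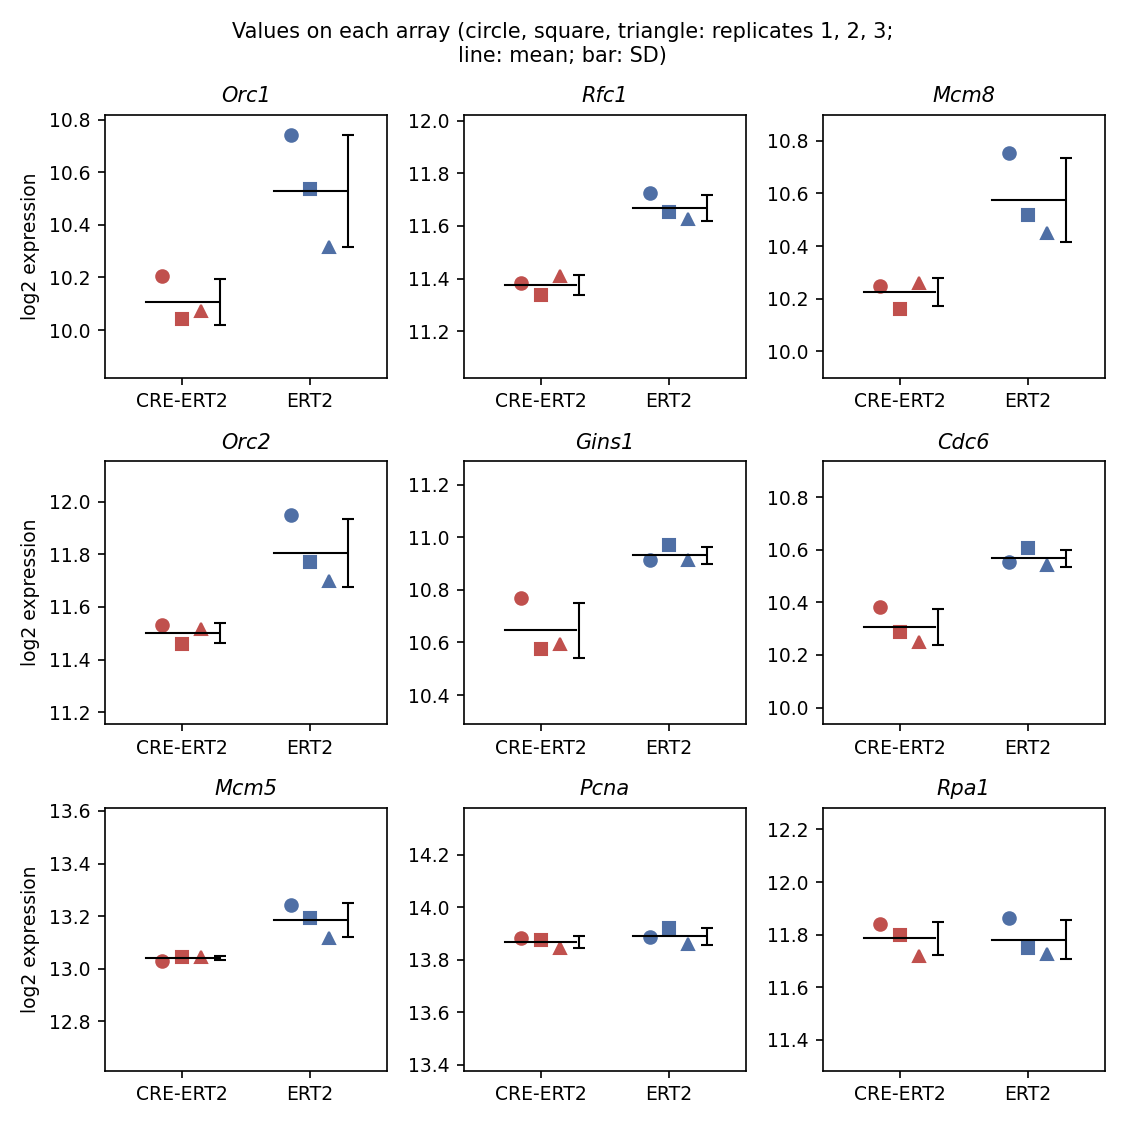
Log2 expression on each array for 9 genes, CRE-ERT2 left and ERT2 right, with the group mean (line) and SD (bar) of 3 arrays; each panel spans 1 log2 unit. The groups are apart for Orc1, Rfc1, Mcm8, Orc2, Gins1, Cdc6 and Mcm5 and overlap for Pcna and Rpa1.

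The loading factors had lower values too, and none of them passed. Cdc6, which joins the origin complex to load the helicase, was at 10.38, 10.29 and 10.25 on the CRE-ERT2 arrays, against 10.55, 10.61 and 10.54 on the ERT2 arrays. Its change was -0.26 (SE 0.07, adjusted p = 0.0620) with no overlap. Cdt1, which delivers the helicase to the origin, was at 11.63, 11.59 and 11.37 on the CRE-ERT2 arrays, against 11.74, 11.82 and 11.76 on the ERT2 arrays, a change of -0.24 (adjusted p = 0.145). The groups did not overlap, and without CRE-ERT2 replicate 3, the lowest array, the change was -0.16 (adjusted p = 0.496). Gmnn, whose product geminin holds CDT1 in check, changed by -0.18 in the same direction (adjusted p = 0.330), again with no overlap.

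None of the 6 MCM helicase subunits passed, and their median change was -0.13. Mcm3 had the largest difference among them, with 12.25, 12.14 and 12.15 on the CRE-ERT2 arrays, against 12.39, 12.43 and 12.34 on the ERT2 arrays (-0.20, adjusted p = 0.158). Mcm2 was at 12.74, 12.71 and 12.63 on the CRE-ERT2 arrays, against 12.92, 12.83 and 12.85 on the ERT2 arrays (-0.17, adjusted p = 0.236). Both of these had non-overlapping groups.

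Mcm5 was at 13.03, 13.04 and 13.05 on the CRE-ERT2 arrays, against 13.24, 13.19 and 13.12 on the ERT2 arrays (-0.14, adjusted p = 0.342). Mcm6 was at 12.65, 12.60 and 12.60 on the CRE-ERT2 arrays, against 12.75, 12.74 and 12.72 on the ERT2 arrays (-0.12, adjusted p = 0.426). The CRE-ERT2 arrays lay below the ERT2 arrays for both, by at least 0.07. For Mcm7, with 13.23, 13.25 and 13.18 on the CRE-ERT2 arrays, against 13.29, 13.28 and 13.29 on the ERT2 arrays, the gap was 0.03 and the change -0.06 (adjusted p = 0.7497). Mcm4 was the one subunit whose groups overlapped, at 12.67, 12.66 and 12.69 on the CRE-ERT2 arrays, against 12.85, 12.70 and 12.68 on the ERT2 arrays (-0.07, adjusted p = 0.730), and without ERT2 replicate 1, the highest array, its change was -0.02. The 95% confidence intervals of the 6 subunits reached down to -0.36 and up to 0.09.

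Mcm8, which resembles these subunits but acts with MCM9 as a separate helicase in recombination repair, fell. It was at 10.25, 10.16 and 10.26 on the CRE-ERT2 arrays, against 10.75, 10.52 and 10.45 on the ERT2 arrays. The groups were apart by 0.19, and ERT2 replicate 1 was again the highest. The change was -0.35 (SE 0.09, limma adjusted p = 0.0391), a level 21.5% lower. The call was lost without CRE-ERT2 replicate 1 (adjusted p = 0.0932), CRE-ERT2 replicate 2 (0.144), CRE-ERT2 replicate 3 (0.130) or ERT2 replicate 1 (0.129). It was also lost after a further quantile normalization (0.0570), with the replicate number as a block (0.0716) and with all probe sets tested (0.215).

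Promoter sequences were looked at because E2F factors are the textbook regulators of this set. A high share of matches was therefore likely from the choice of genes alone and does not bear on the change. RefSeq promoter windows (GRCm38.p6, 250 bases before to 50 after the gene's start) matched 38 of the 46 members, with 47 windows since some genes have several starts. Each window was searched on both strands for the E2F-type motif in the 4 forms TTTCCCGC, TTTGGCGC, TTTCGCGC and TTTGCCGC, counting overlapping matches. At least 1 match was present in 16 of 47 windows (34%), which belonged to 16 of the 38 genes, against 2.26% of all 32851 windows of the same length and 2.85% of the windows of protein-coding genes. Related lists held it often too, in 28.6% of 28 windows of other replication genes and 10.3% of 29 windows of mitosis genes. Orc1 and Mcm8 were among the genes with a match and Rfc1 was not. Mcm7 (-0.06) and Topbp1 (-0.08), with some of the smallest changes, had a match too. Whether a match goes with the size of the change was not tested. A match is a string of letters and not evidence that a factor binds there.

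The 160 bases before the start are given for Orc1, the gene with the largest decrease, for Cdc6 and Pola1, members with changes of -0.26 that did not pass, and for Mcm5 and Mcm6, helicase subunits with smaller changes. Capitals mark the motif on either strand, and all run 5′ to 3′ along the gene's own strand.
Orc1, chr4:108579294-108579453, plus strand: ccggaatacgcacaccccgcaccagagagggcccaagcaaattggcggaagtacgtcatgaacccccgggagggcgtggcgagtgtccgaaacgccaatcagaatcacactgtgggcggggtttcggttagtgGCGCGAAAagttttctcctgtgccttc
Cdc6, chr11:98907991-98908150, plus strand: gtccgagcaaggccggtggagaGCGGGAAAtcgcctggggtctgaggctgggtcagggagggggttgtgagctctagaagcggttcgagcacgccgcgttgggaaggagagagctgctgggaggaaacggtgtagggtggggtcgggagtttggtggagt
Pola1, chrX:93632156-93632315, minus strand: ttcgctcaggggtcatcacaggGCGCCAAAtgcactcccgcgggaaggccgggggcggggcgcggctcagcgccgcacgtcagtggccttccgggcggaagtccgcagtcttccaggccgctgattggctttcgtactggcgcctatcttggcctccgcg
Mcm5, chr8:75109349-75109508, plus strand: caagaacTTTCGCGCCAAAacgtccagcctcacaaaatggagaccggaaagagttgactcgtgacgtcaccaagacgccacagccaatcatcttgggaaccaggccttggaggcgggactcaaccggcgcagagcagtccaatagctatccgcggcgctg
Mcm6, chr1:128359706-128359865, minus strand: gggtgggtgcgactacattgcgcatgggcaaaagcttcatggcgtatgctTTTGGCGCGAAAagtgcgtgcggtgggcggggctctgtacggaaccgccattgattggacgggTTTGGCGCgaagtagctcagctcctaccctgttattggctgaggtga
Relative to the start, the match began at position -27 in Orc1 and at -138 in Cdc6 and Pola1. Mcm5 had 2 overlapping matches and Mcm6 had 3, of which 2 overlapped.

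The genes that turn a loaded helicase on were lower in the CRE-ERT2 cells as values, and 0 of 11 passed in limma. At an unadjusted p under 0.05, 6 of them were lower, against 11.1% of all genes. Gins1, a subunit of the GINS complex that completes the active helicase, was at 10.77, 10.58 and 10.59 on the CRE-ERT2 arrays, against 10.91, 10.97 and 10.91 on the ERT2 arrays. The groups were apart by 0.14, CRE-ERT2 replicate 1 was nearest to the ERT2 arrays, and the change was -0.29 (SE 0.08, adjusted p = 0.0545). Gins1 passed without CRE-ERT2 replicate 1 (-0.35, adjusted p = 0.0403) and did not when any other array was left out (-0.25 to -0.30, adjusted p 0.0795 to 0.233). Its partners Gins3 (-0.20), Gins4 (-0.18) and Gins2 (-0.10) had adjusted p of 0.152, 0.217 and 0.602, and the groups overlapped for Gins2 alone of the GINS genes.

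Mcm10, which helps the helicase open the origin, was at 11.45, 11.43 and 11.45 on the CRE-ERT2 arrays, against 11.96, 11.59 and 11.64 on the ERT2 arrays. The change was -0.28 (adjusted p = 0.128), with close CRE-ERT2 values and ERT2 replicate 1 far above the others, and without that array it was -0.17 (0.326). Ticrr, the mammalian counterpart of the yeast firing factor Sld3, changed by -0.19 and Wdhd1, which ties polymerase alpha to the helicase, by -0.16. Cdc45, the helicase partner of GINS, changed by -0.13 (adjusted p = 0.391) with no overlap between groups. The scaffold and checkpoint gene Topbp1 had the smallest value of this class, -0.08, with overlapping groups. The firing kinase gene Cdc7 changed by -0.17 and its activating subunit gene Dbf4 by -0.20, with adjusted p of 0.313 and 0.218.

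At the fork, the clamp loader and the clamp gave different values. Rfc1, the large subunit of replication factor C, fell. It was at 11.38, 11.34 and 11.41 on the CRE-ERT2 arrays, against 11.72, 11.65 and 11.63 on the ERT2 arrays. The gap between groups was 0.22, the widest among the 46 genes, and the change was -0.29 (SE 0.07, limma adjusted p = 0.0338), a level 18.3% lower. Its call was lost without CRE-ERT2 replicate 1 (adjusted p = 0.0862), CRE-ERT2 replicate 2 (0.153), CRE-ERT2 replicate 3 (0.106), ERT2 replicate 1 (0.106) or ERT2 replicate 2 (0.0637). It was also lost after a further quantile normalization (0.0567), with the replicate number as a block (0.106) and with all probe sets tested (0.124).

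The small subunits of the loader did not pass. Rfc3 was at 11.76, 11.63 and 11.54 on the CRE-ERT2 arrays, against 12.23, 11.85 and 11.88 on the ERT2 arrays (-0.34, adjusted p = 0.0886). Leaving out 1 array moved Rfc3 between -0.22 (without ERT2 replicate 1, adjusted p = 0.269) and -0.41 (without ERT2 replicate 2, 0.0425), and it passed in the last of these cases only, with 0.346 without CRE-ERT2 replicate 3. Rfc4 was at 13.25, 13.16 and 13.27 on the CRE-ERT2 arrays, against 13.57, 13.42 and 13.44 on the ERT2 arrays (-0.25, adjusted p = 0.0858). Neither of these overlapped. Rfc5, at 12.87, 12.80 and 12.70 on the CRE-ERT2 arrays, against 13.08, 12.87 and 13.05 on the ERT2 arrays (-0.21, adjusted p = 0.214), overlapped by less than 0.01 through ERT2 replicate 2. Rfc2 changed by -0.19 (adjusted p = 0.214) with no overlap.

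Pcna, the sliding clamp that the loader places on DNA, was at 13.88, 13.88 and 13.84 on the CRE-ERT2 arrays, against 13.89, 13.92 and 13.86 on the ERT2 arrays. The groups overlapped, and the change was -0.02 (95% confidence interval -0.17 to 0.13, adjusted p = 0.946). Leaving out 1 array gave -0.0352 (without ERT2 replicate 3) to -0.0044 (without ERT2 replicate 2). A second Pcna probe set gave the same difference, -0.02, with values close to the first on every array. Whether the probe sets read separate sequences was not tested. The mean level of Pcna was higher than that of 99.7% of genes, and whether the probe sets were near saturation was not tested. The difference between the loader and clamp genes was not tested either.

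Replication protein A, the trimer that coats single-stranded DNA, held the one member with a change above 0. Rpa1, its large subunit gene, was at 11.84, 11.80 and 11.72 on the CRE-ERT2 arrays, against 11.87, 11.75 and 11.73 on the ERT2 arrays. The groups overlapped, and the change was 0.0051 (95% confidence interval -0.16 to 0.17). Its sign was below 0 in 4 of the 6 comparisons that left out an array. Rpa2 changed by -0.15 and Rpa3 by -0.11, with adjusted p of 0.394 and 0.533, and a second Rpa3 probe set by -0.09.

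Of the polymerase genes, 0 of 8 passed. At an unadjusted p under 0.05, 3 of them were lower, against 11.1% of all genes. Pola1, the catalytic subunit of polymerase alpha, was at 11.49, 11.46 and 11.55 on the CRE-ERT2 arrays, against 11.92, 11.72 and 11.66 on the ERT2 arrays (-0.26, SE 0.08, adjusted p = 0.0972), with no overlap. Its accessory subunit Pola2 was at 12.23, 12.18 and 12.11 on the CRE-ERT2 arrays, against 12.19, 12.29 and 12.20 on the ERT2 arrays (-0.05, adjusted p = 0.850), with overlap. Leaving out 1 array moved Pola2 between -0.08 (without CRE-ERT2 replicate 1) and -0.02 (without ERT2 replicate 2). The primase genes Prim1, the catalytic subunit, and Prim2 changed by -0.18 and -0.08.

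Pold2, an accessory subunit of the lagging-strand polymerase delta, was at 12.71, 12.62 and 12.54 on the CRE-ERT2 arrays, against 12.78, 12.84 and 12.85 on the ERT2 arrays (-0.20, adjusted p = 0.173). Here ERT2 replicate 1 was the lowest of its group, and the groups did not overlap. The catalytic subunit gene Pold1 (-0.15), the catalytic subunit gene Pole of the leading-strand polymerase epsilon (-0.15) and its partner Pole2 (-0.14) lay close together, each with no overlap. The Okazaki fragment genes, the flap nuclease Fen1 (-0.19) and DNA ligase Lig1 (-0.16), had adjusted p of 0.216 and 0.311 and no overlap.

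The number of passing members differed between settings. With the third of genes of lowest level left out, 7 members passed, all lower, against 5.42% of the genes kept. The 4 added were Orc2, Cdc6, Gins1 and Rfc4. With a trended, robust variance, 15 members passed, all lower, against 4.80% of genes. Beyond those 7 the list then held Mcm2, Mcm3, Mcm10, Cdt1, Pola1, Pold2, Rfc3 and Rfc5. When all 35556 probe sets were tested instead, 0 members passed and 22 had an unadjusted p under 0.05. The share of all probe sets at that p was not counted.

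Other genes of DNA replication and of the cell cycle, listed by function, gave smaller or similar medians. The median change of 30 other replication genes was -0.15, and 28 were below 0, against 61.1% of all genes. At an unadjusted p under 0.05, 11 of them were lower, against 11.1% of all genes. In limma 2 fell, 0 rose and 28 did not pass, where 2.28% of all genes passed as lower. The 2 were Recql4, a helicase needed to start replication (9.15, 9.15 and 9.08 on the CRE-ERT2 arrays, against 9.48, 9.43 and 9.37 on the ERT2 arrays, -0.30, limma adjusted p = 0.0297), and Timeless, of the complex that protects moving forks (-0.30, 0.0447). Recql4 lost its call without any 1 of 5 arrays, all but ERT2 replicate 3 (adjusted p 0.0623 to 0.152). Timeless lost it without any array but ERT2 replicate 2 (0.0597 to 0.225), with arrays centred on their medians (0.0606) and after a further quantile normalization (0.0675). Both lost it with the replicate number as a block (0.0881 and 0.102) and with all probe sets tested (0.119 and 0.186). Dscc1, part of an alternative clamp loader, had the largest difference of that list, -0.31, and did not pass (0.0791).

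Of 10 genes that supply deoxynucleotides, 0 passed in limma, and their median change was -0.10. At an unadjusted p under 0.05, 2 of them were lower, against 11.1% of all genes. The lowest p belonged to the dUTPase gene Dut (-0.16), the ribonucleotide reductase gene Rrm2 (-0.15) and the thymidine kinase gene Tk1 (-0.13). Of 29 mitosis genes 0 passed and 27 were below 0, against 61.1% of all genes, with a median of -0.12. At an unadjusted p under 0.05, 7 of them were lower, against 11.1% of all genes. The checkpoint kinase gene Bub1 (-0.30), the condensin gene Ncapg (-0.25) and the kinesin gene Kif2c (-0.23) had the lowest p. The median deviation of the mitosis genes was -0.03, -0.09 and -0.06 on CRE-ERT2 replicates 1 to 3, against 0.08, 0.05 and 0.05 on ERT2 replicates 1 to 3. The highest of these arrays was ERT2 replicate 1 and the lowest CRE-ERT2 replicate 2, but ERT2 replicate 2 was highest for the deoxynucleotide genes (0.08) and for the G1/S cyclin and E2F genes (0.06), for which ERT2 replicate 3 lay at -0.03.

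Of 26 G1/S cyclin and E2F genes, 1 rose and 1 fell, where 4.58% of all genes passed in either direction. Their median change was -0.12. Ccnd1, which encodes the G1 cyclin D1, went against the replication genes, at 11.47, 11.41 and 11.40 on the CRE-ERT2 arrays, against 10.37, 10.34 and 10.29 on the ERT2 arrays. The change was 1.09, or 2.13-fold (limma adjusted p = 1.56e-06), and it passed whichever array was left out. Fbxo5, which encodes the anaphase-promoting complex inhibitor EMI1, fell by 0.36 (adjusted p = 0.0279). Its call was lost without CRE-ERT2 replicate 1, 2 or 3 or ERT2 replicate 1 (0.0620 to 0.120). The call was also lost with the replicate number as a block (0.053) and with all probe sets tested (0.168). E2f2, one of the activating E2F factors, had a change of -0.28 and did not pass (0.0501).

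**Figure D4:**
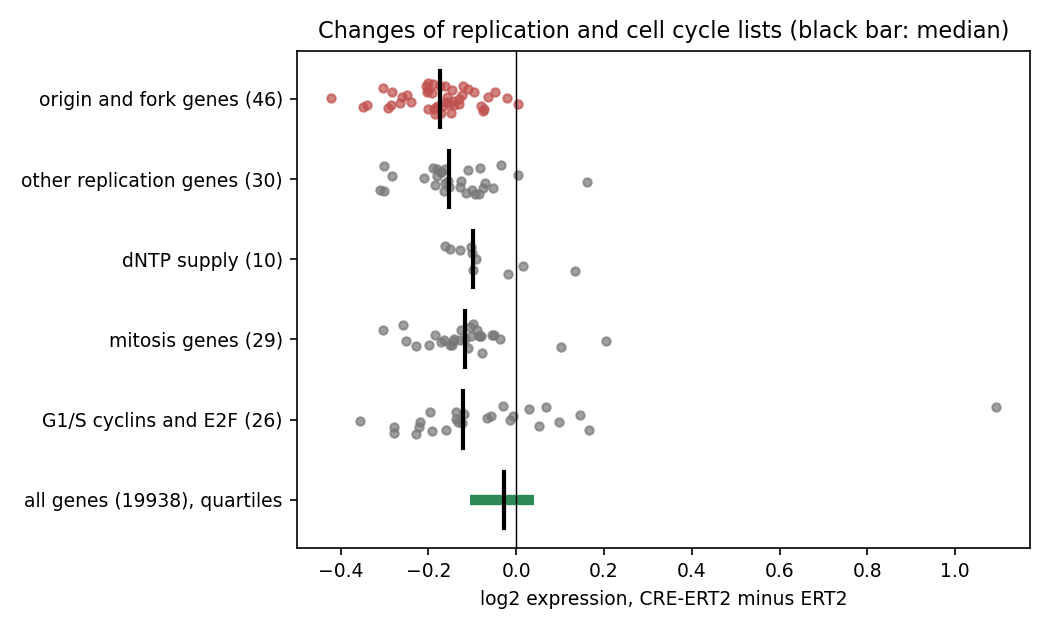
Change of each gene (points, log2 expression, CRE-ERT2 minus ERT2) in the origin and fork set and in 4 related lists, with the list median (black bar), and the quartiles of all genes below. The medians are -0.17, -0.15, -0.10, -0.12 and -0.12 from top to bottom, against -0.03 for all genes, and the single point beyond 1 is Ccnd1.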

How the data were processed

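The authors deposited log2 values for 35556 probe sets on 6 arrays. The submitters' processing notes list RMA and Partek 6.5 without saying what each did, and the log2 scale was read from the values. No scanner output was used here, so background levels and scan batches were not tested. Probe sets were named through the platform annotation. RefSeq (GRCm38.p6) held 21698 of the single-gene probe sets' identifiers and changed 0 symbols. The 21789 probe sets with a single gene gave 19938 genes. No array duplicated another (Pearson r 0.991 to 0.996).

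Groups were fitted with limma 3.58.1 in R 4.3.3 (lmFit, eBayes, group as the only term, two-sided), with Benjamini-Hochberg adjustment over all genes and a threshold of 0.05. The members and lists were chosen with earlier results of these data known. Values on every array are given for members that passed in any planned setting with all 6 arrays, the 10 largest and 4 smallest changes, and the 6 MCM subunits. Of the related lists, passing genes and the 3 with the smallest p are named. Some listed genes are not reported here.

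Alternatives were a further quantile normalization, median centring, leaving out the third of genes with the lowest levels, averaging the probe sets of a gene, all probe sets, a trended, robust variance, array weights, a replicate block, other thresholds and leaving out each array.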

Additional observations from a re-analysis of the deposited data

How the results depend on the processing

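The median change of the members stayed between -0.20 and -0.13 under every setting tried. Each differed from the main value of -0.17 by less than the SD of the array medians within a group (0.0431). Ptpn6 passed in none of the settings. The count of 3 passing members moved to 1 after a further quantile normalization (Orc1), where 349 of 19938 genes passed as lower. It was 7 with the third of genes with the lowest levels left out (720 of 13292 genes lower). With a trended, robust variance it was 15 (957 of 19938) and with array weights 6 (566 of 19938). It was 0 with all probe sets tested in limma (110 of 35556 probe sets lower) and 0 with a minimum log2 change of 1 (18 genes lower). When 1 array was left out it was 0 to 4 (167 to 561 genes lower). At an unadjusted p under 0.05 the count of members was 23, all lower, against 11.1% of all genes. The count of 914 genes moved to 1544 with a trended, robust variance, 298 probe sets with all probe sets tested, 49 with a minimum change of 1, 3260 at an unadjusted p and 453 to 979 when 1 array was left out. Genes passing as lower numbered 455, but 349 of 892 after a further quantile normalization, 399 of 922 after centring and 566 of 1033 with array weights. Rpa1, at 0.0051, ranged from -0.0226 to 0.0474 when 1 array was left out.

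The labels do not say whether same-numbered arrays share a culture or day. Deviations of same-numbered arrays correlated at -0.11, -0.37 and -0.07 over genes, and 0 of 6 arrays correlated best with its own number. With 3 arrays a group, these values cannot settle whether the numbers pair the samples. Across groups and numbers the highest correlations were 0.449 (CRE-ERT2 replicate 1 with ERT2 replicate 2) and 0.396 (CRE-ERT2 replicate 2 with ERT2 replicate 3). With the replicate number as a block, 1 member passed (Orc1) and 589 genes. The cause of these differences was not tested. The number of arrays and the unknown background limit what small changes can show.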
